A study of Mus musculus with 8 samples.

Results

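Toll-like receptors (TLRs) are membrane receptors that bind conserved molecules of microbes, and Cd14 is a surface protein that picks up lipopolysaccharide (LPS) and hands it to the complex of Tlr4 and its partner Ly96. Tlr2 pairs with Tlr1 or Tlr6 at the cell surface to bind bacterial lipoproteins, while Tlr3, Tlr7, Tlr8, Tlr9 and Tlr13 sit in endosomes and bind nucleic acids. After ligand binding, most of these receptors signal through the adaptor Myd88, Tlr3 signals through Ticam1 and Tlr4 uses both, and the pathways end in NFκB, MAP kinase and interferon regulatory factor activation. In macrophages, Tlr4 is the receptor by which LPS acts.

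Here 9 TLR genes and Cd14, chosen by symbol, were followed in RNA-seq of mouse peritoneal macrophages. All 10 were found among the 55801 genes of the table, each symbol once, and all 10 were among the 12189 genes tested, whose mean over the 8 samples was 1 TPM or more (TPM are transcripts scaled to a common total per sample). The cells came from male C57BL/6 mice 6 to 8 weeks old that had been injected with thioglycollate broth, which recruits macrophages into the peritoneal cavity, and the sources name no genetic change in any group. Each of the 4 groups held 2 samples: cells given vehicle only (here NC), cells given LPS, cells given C498, and cells given both (C498+LPS). C498 is a small molecule, named here by its code name, that the study tested as an inhibitor of inflammatory signalling. It was given at 15 μM and 0.5 h before LPS, and LPS was given at 100 ng/ml for 4 h. Neither the labels nor the methods say whether the 2 samples of a group came from separate mice or cultures, so the spread behind each test may be technical. The 4 comparisons share samples, in that LPS vs NC and C498 vs NC have the same NC samples, and C498+LPS enters both of the others.

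Levels are in TPM, which corrects for gene length. Differences are log2 changes of TPM + 1 from limma, fitted to all tested genes, with p-values adjusted over all of them. A gene is said to have risen or fallen where the change was at least 2-fold on that scale with an adjusted p of at most 0.05. An exact permutation test of 2 samples against 2 cannot give a two-sided p below 0.333, so the fit across all genes carries every test.

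The samples were checked against markers of macrophages and of other cells. The summed TPM of 10 macrophage markers, led by Lyz2, Cd68 and Adgre1, was 19905 to 20423 in NC, 16645 to 17292 in LPS, 15302 to 15468 in C498 and 10660 to 12454 in C498+LPS, and Cd163 was under 1 TPM in every sample. Lyz2 made up most of that sum, with means of 15986 TPM in NC and 8536 TPM in C498+LPS. Of the 9 macrophage markers tested, 7 had lower values with C498 alone and none was called (median log2 change -0.44). In LPS-treated cells 8 had lower values with C498 and 1 was called lower (median -0.64). Over all tested genes, 1.36% and 2.18% were called lower in these comparisons. A sum over 7 fibroblast markers, led by Col1a1, Col1a2 and Dcn, was 151 to 193 in NC, 184 to 210 in LPS, 634 to 751 in C498 and 620 to 912 in C498+LPS, with Lum under 1 TPM throughout. Of the 6 fibroblast markers tested, 5 rose with C498 alone, against 5.64% of all tested genes called higher. In LPS-treated cells, C498 raised 4 and lowered Pdgfrb (log2 change -1.81, adjusted p = 0.00226), against 5.39% higher and 2.18% lower of all tested genes. Mesothelial markers summed to 5.37 to 5.9 in NC and 5.4 to 5.54 in LPS, against 16.3 to 22.0 in C498 and 16.5 to 25.9 in C498+LPS. Neutrophil markers summed to 119 to 170.0 in NC and 136 to 159 in LPS, against 71.5 to 74.1 in C498 and 85.6 to 98.7 in C498+LPS, with S100a8 and Csf3r the most abundant, S100a9, Mpo, Ltf and Cxcr2 under 1 TPM in every sample and Elane at 0. B cell markers summed to 19.2 to 27.7 in the 4 samples without C498 and 43.7 to 123 in the 4 with it, with Ms4a1 and Cr2 under 1 TPM. Ighm made up most of that sum, with 37.2 TPM in C498+LPS replicate 1 and 106 TPM in replicate 2. Of the 4 B cell markers tested, 3 had higher values and 1 lower with C498, both alone and in LPS-treated cells. None was called with C498 alone, and only Ighm rose in LPS-treated cells (log2 change 1.59, adjusted p = 0.0484). Plasmacytoid dendritic cell markers, led by Bst2, Irf8 and Cox6a2, summed to 1641 to 2143 TPM over all 8 samples, with Siglech, Ccr9 and Klk1 under 1 TPM. Bst2 made up most of that sum, in which Irf8 rose with C498 in LPS-treated cells (log2 change 1.43, adjusted p = 0.00122) and with LPS in C498-treated cells (1.31, adjusted p = 0.00135), both in every alternative. Tcf4 rose with LPS (1.43, adjusted p = 0.0324) and Zbtb46, of the dendritic list, with C498 in LPS-treated cells (1.21, adjusted p = 0.0354), but the first call was lost without any one sample other than NC replicate 1 (adjusted p 0.0642 to 0.181) and the second without any one sample outside NC (adjusted p 0.0502 to 0.171). Pdgfrb, Ighm, Irf8, Tcf4 and Zbtb46 are named after their values were seen. The dendritic, T and NK, mast and eosinophil lists summed to at most 15.2 TPM in any sample. In bulk samples, fewer cells of a type and less RNA per cell cannot be told apart, and the part that these shifts have in the changes with C498 below was not tested.

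Promoter sequences are shown for some of the genes whose promoter windows were searched. They are Tlr2, which rose with LPS with or without C498, and Tlr1, which rose with LPS and fell with C498. The others are Tlr6, the neighbour and close relative of Tlr1, and Tlr13, which had lower TPM in every treated group. No promoter window of Cd14, Tlr4 or Tlr7 was searched, so motif matches of these genes were not tested. RefSeq promoter windows (build GRCm38.p6) were used for 7 of the 10 genes, Tlr1, Tlr2, Tlr3, Tlr6, Tlr8, Tlr9 and Tlr13. They made up 9 windows of 250 bases before a start site. Both strands of these windows were searched for the letters GGGNNTTNC (NFκB), GAAANNGAA (interferon-stimulated response element, ISRE), TGANTCA (AP-1) and GAGGAAGT (ETS, the form bound by the macrophage factor PU.1), which occur in 13.0%, 7.13%, 6.75% and 2.44% of all 32851 mouse promoter windows of that length. Each stretch below is 5′ to 3′ on the gene's strand, is limited to bases outside annotated exons of the gene, and has motif matches in capitals. Tlr2 is at chr3:83841768-83841858 (minus strand), Tlr1 at chr5:64933564-64933808 (minus), Tlr6 at chr5:64959167-64959416 (minus) and Tlr13 at chrX:106143025-106143203 (plus).
Tlr2: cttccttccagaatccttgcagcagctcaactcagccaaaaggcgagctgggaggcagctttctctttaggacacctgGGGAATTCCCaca
Tlr1: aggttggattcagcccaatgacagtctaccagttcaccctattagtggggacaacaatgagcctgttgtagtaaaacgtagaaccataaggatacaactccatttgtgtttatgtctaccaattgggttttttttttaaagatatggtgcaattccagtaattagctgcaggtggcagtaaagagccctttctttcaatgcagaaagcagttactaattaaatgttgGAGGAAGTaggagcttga
Tlr6: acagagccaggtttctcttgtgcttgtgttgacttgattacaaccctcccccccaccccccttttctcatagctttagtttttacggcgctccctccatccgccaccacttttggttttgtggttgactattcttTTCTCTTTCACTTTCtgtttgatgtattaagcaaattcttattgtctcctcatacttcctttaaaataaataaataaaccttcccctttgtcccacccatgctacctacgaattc
Tlr13: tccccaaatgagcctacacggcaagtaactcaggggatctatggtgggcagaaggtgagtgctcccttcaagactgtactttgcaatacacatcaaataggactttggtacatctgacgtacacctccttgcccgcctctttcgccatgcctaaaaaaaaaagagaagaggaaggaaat
The Tlr2 stretch holds 2 overlapping NFκB matches on opposite strands, the Tlr1 stretch 1 ETS match, and the Tlr6 stretch 2 overlapping ISRE matches. No searched letters lie in the Tlr13 stretch. Among the windows not shown, Tlr3 had 1 NFκB match, Tlr8 1 ISRE match and Tlr9 1 AP-1 match. The other window of Tlr1 (chr5:64932700-64932949) and that of Tlr6 (chr5:64960049-64960298) held no match. The Tlr6 stretch shown lies within the annotated gene, while its other window spans the gene's annotated start. These matches describe the letters of the windows, and binding was not measured.

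Across the 10 genes, LPS raised 4 (Cd14, Tlr3, Tlr2 and Tlr1) and lowered none, against 5.55% of all tested genes called higher and 6.68% called lower. C498 alone raised 1 (Cd14) and lowered 2 (Tlr1 and Tlr7), against 5.64% higher and 1.36% lower of all tested genes. In LPS-treated cells, C498 lowered 6 (Tlr1, Tlr8, Tlr3, Tlr4, Tlr7 and Tlr6) and raised none, against 2.18% lower and 5.39% higher of all tested genes. Within C498-treated cells, LPS raised 4 (Cd14, Tlr1, Tlr2 and Tlr3) and lowered 1 (Tlr4), against 2.52% higher and 3.13% lower. The median log2 change of the 10 genes was 0.82 with LPS, -0.66 with C498, -1.04 with C498 in LPS-treated cells and 0.65 with LPS in C498-treated cells, beside -0.17, 0.01, 0.01 and -0.18 over all tested genes. Both LPS comparisons are thus centred below 0 by more than 0.1, and relative to the median gene the members' rises with LPS were larger by that much.

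**Figure D1:**
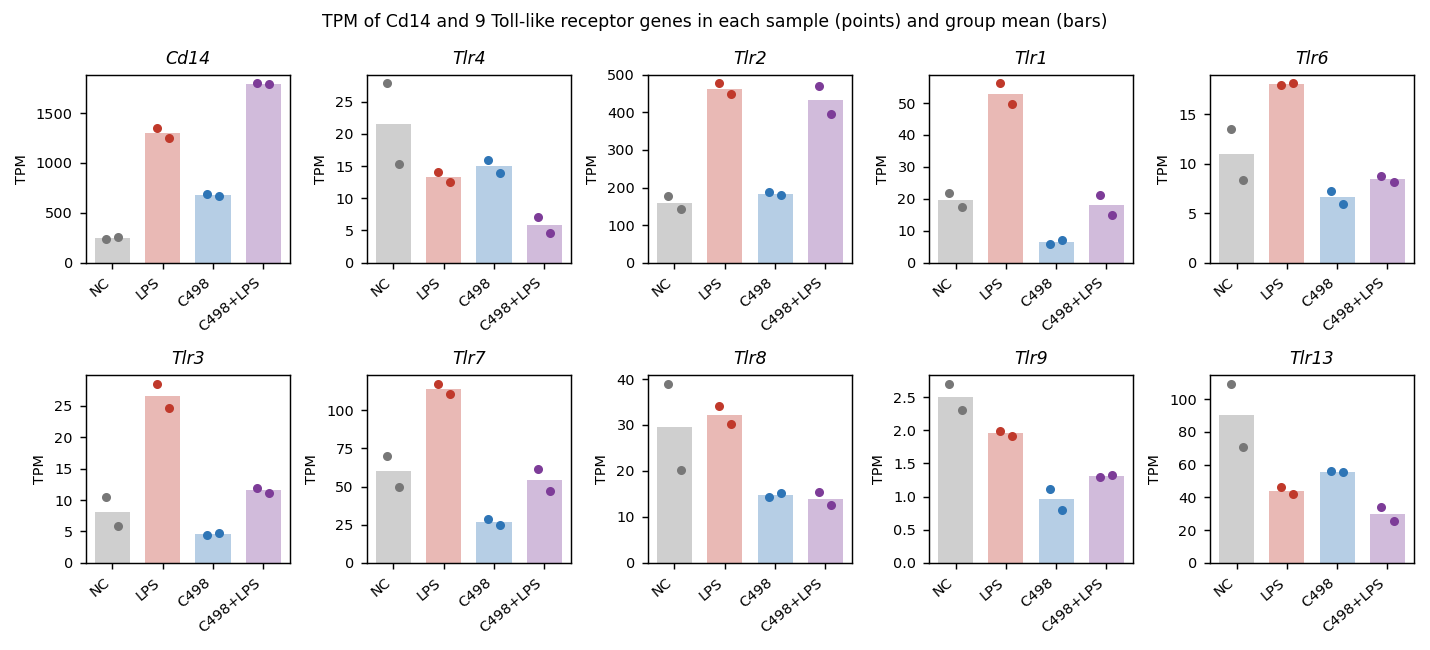
TPM of each of the 10 genes (linear axis from 0, 1 panel a gene) in the 8 samples by group, each point 1 sample and each bar the mean of 2. Cd14 was above every receptor in all 4 groups, from 235 TPM in 1 NC sample to 1797 TPM in 1 C498+LPS sample.

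**Figure D2:**
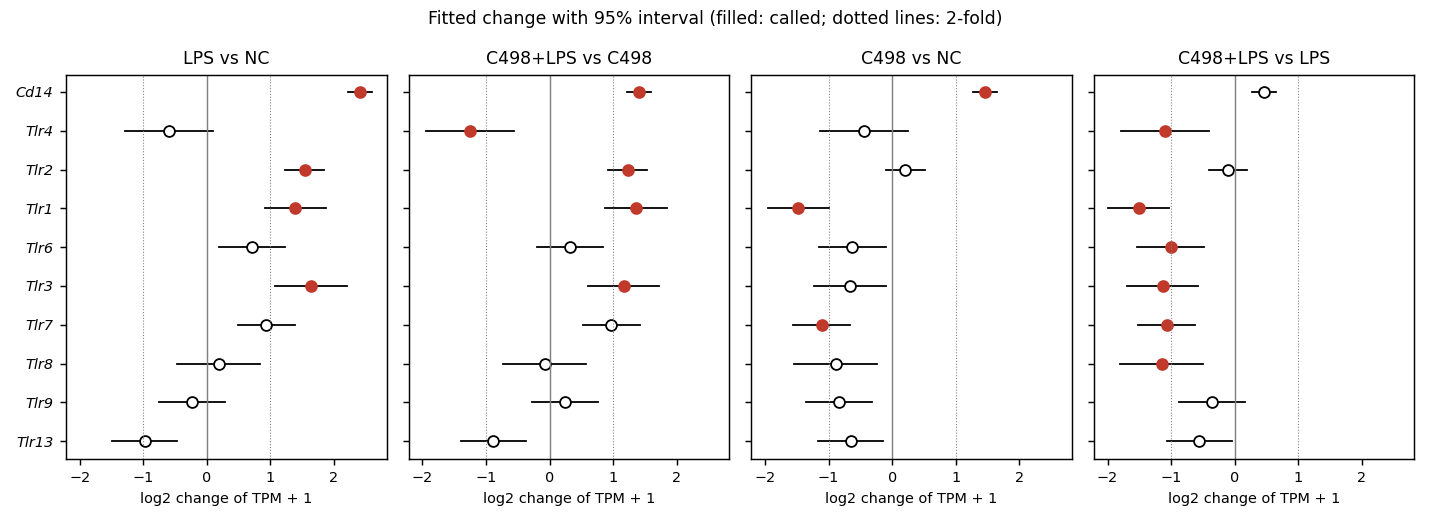
Log2 change of TPM + 1 of the 10 genes in the 4 comparisons, each point the limma estimate with its 95% confidence interval, filled where it was a call, and dotted lines at 2-fold. Cd14 lies above 0 in all 4 comparisons, while Tlr1 lies at 1.39 with LPS and -1.48 with C498.

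Cd14 (ENSMUSG00000051439, chr18:36725067-36726798, minus strand) had the highest level of the 10 genes in every group. Its TPM was 235 and 252 in NC, 1352 and 1250.5 in LPS, 686 and 663 in C498, and 1797 and 1794 in C498+LPS. No groups overlapped, and the order of the samples was NC, C498, LPS and C498+LPS. LPS raised it 5.34-fold by means (log2 change 2.41 ± 0.08 SE, adjusted p = 4.24e-06). C498 alone raised it 2.77-fold (1.47 ± 0.08, adjusted p = 0.000121). In C498-treated cells LPS raised it 2.66-fold (1.41, adjusted p = 0.000102). C498+LPS was 1.38 times LPS (0.47, interval 0.28 to 0.65, adjusted p = 0.00926), which is short of 2-fold. Its adjusted p rose to 0.117 when samples were centred on the median gene.

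The response of Cd14 to LPS was smaller on the log2 scale with C498 than without it. The interaction was -1.00 ± 0.11 (95% interval -1.27 to -0.74, adjusted p = 0.0214), and among all tested genes 0.394% were called lower and 0.0738% higher in the interaction. The other 9 genes had interactions from -0.66 (Tlr4) to 0.49 (Tlr9), with adjusted p from 0.595 to 0.981, so no difference in their LPS response was shown. With NC replicate 1 left out that of Tlr4 moved to -1.07 (adjusted p = 0.142), and with NC replicate 2 left out to -0.24, and that of Tlr3 (-0.47) to -0.84 (adjusted p = 0.0975) and -0.11 likewise. The estimate for Cd14 stayed between -1.11 and -0.94 over all alternatives, but its adjusted p passed 0.05 in several, up to 0.149 without C498 replicate 1. It was a call when NC replicate 2 was left out, and not when any of the other 7 samples was.

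Tlr4 (ENSMUSG00000039005, chr4:66827584-66930284, plus strand), the LPS receptor, had 27.8 and 15.3 TPM in NC, 14.1 and 12.6 in LPS, 16.0 and 14.0 in C498, and 7.1 and 4.53 in C498+LPS. The C498+LPS samples were below all the others, and the C498 samples overlapped with NC. Tlr4 fell in C498+LPS against LPS (log2 change -1.10 ± 0.30, interval -1.79 to -0.40, adjusted p = 0.0446) and against C498 (-1.25, interval -1.95 to -0.56, adjusted p = 0.0312). LPS alone gave -0.60 (interval -1.29 to 0.10, adjusted p = 0.176) and C498 alone -0.44 (-1.14 to 0.25, adjusted p = 0.342). The 2 NC samples were far apart, and so were their medians of log2(TPM + 1) over all tested genes, at 4.03 and 3.71. These medians were 3.76 and 3.65 in LPS, 4.00 and 3.99 in C498, and 3.80 and 3.76 in C498+LPS. The value of Tlr4 for LPS alone moved to -1.01 with NC replicate 2 left out, but to -0.18 with NC replicate 1 left out. That for C498 alone moved to -0.86 (adjusted p = 0.0913) and -0.03 (adjusted p = 0.945) in the same way.

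The ratio of the TPM of Cd14 to that of Tlr4 was 8.46 and 16.5 in NC, 95.6 and 99.4 in LPS, 43.0 and 47.5 in C498, and 253 and 396 in C498+LPS. These ratios describe mRNA and say nothing of the proteins at the surface.

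**Figure D3:**
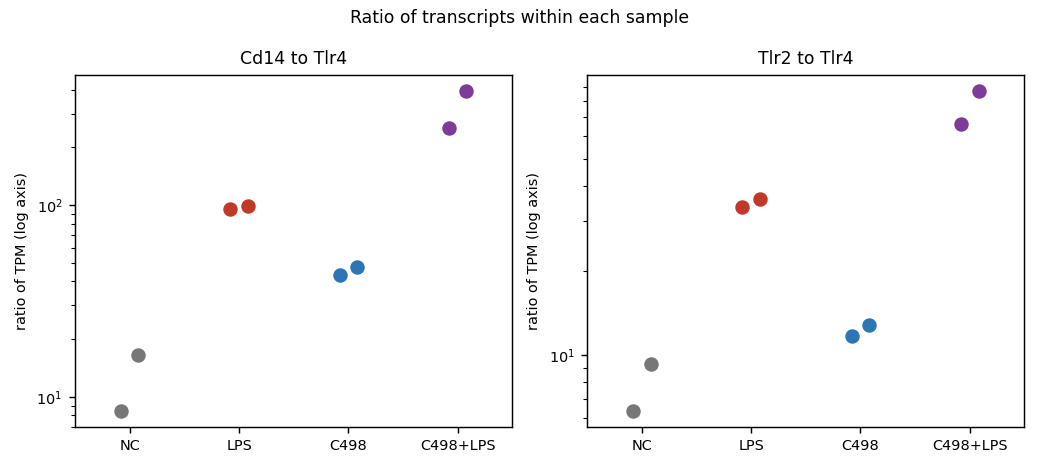
Ratios of TPM of Cd14 to Tlr4 and of Tlr2 to Tlr4 (log axes) in the 8 samples by group, each point 1 sample. Cd14 over Tlr4 runs from 8.46 in NC to 396 in C498+LPS and Tlr2 over Tlr4 from 6.35 to 87.2, neither with overlap of groups.

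Tlr2 (ENSMUSG00000027995, chr3:83836272-83841767, minus strand), the shared partner of the lipoprotein receptors, had 177 and 142 TPM in NC, 477 and 450.0 in LPS, 188 and 179 in C498, and 469 and 395 in C498+LPS. All LPS-treated samples were above all samples without LPS, and the C498+LPS and LPS samples overlapped. LPS raised it 2.91-fold (log2 change 1.54 ± 0.13, adjusted p = 0.000247), and in C498-treated cells 2.36-fold (1.23, adjusted p = 0.00158). C498 alone gave 0.21 (interval -0.10 to 0.52, adjusted p = 0.312), which moved to 0.37 without NC replicate 1 and to 0.05 without NC replicate 2. C498+LPS against LPS gave -0.11 (interval -0.41 to 0.20, adjusted p = 0.643), so a change of Tlr2 by C498 was not shown, and the intervals exclude a 2-fold change in either comparison.

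Tlr1 (ENSMUSG00000044827, chr5:64924679-64933563, minus strand), one of the receptors that pair with Tlr2, had 21.9 and 17.4 TPM in NC, 56.1 and 49.6 in LPS, 5.72 and 7.04 in C498, and 21.3 and 15.0 in C498+LPS. C498 samples were the lowest, LPS samples the highest, and C498+LPS samples overlapped with NC. LPS raised it 2.69-fold (log2 change 1.39 ± 0.20, adjusted p = 0.00284) and, in C498-treated cells, 2.84-fold (1.36, adjusted p = 0.00653). C498 brought it to 32.5% of NC (-1.48, adjusted p = 0.00511) and, with LPS, to 34.3% of LPS (-1.51, adjusted p = 0.00377). The fall with C498 alone had an adjusted p of 0.0594 without C498 replicate 1, and 0.0517 when only the NC and C498 samples were fitted.

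Tlr6 (ENSMUSG00000051498, chr5:64952031-64960097, minus strand), the other partner of Tlr2, had 13.5 and 8.38 TPM in NC, 17.9 and 18.1 in LPS, 7.26 and 5.91 in C498, and 8.8 and 8.14 in C498+LPS. The LPS samples were the highest, the C498 samples the lowest, and C498+LPS overlapped with NC. It fell in C498+LPS against LPS, to 47.0% (log2 change -1.01, adjusted p = 0.0232). LPS alone gave 0.71 (interval 0.18 to 1.23, adjusted p = 0.0507) and C498 alone -0.63 (interval -1.15 to -0.10, adjusted p = 0.103). The LPS value was 1.02 (adjusted p = 0.0092) with NC replicate 1 left out and 0.39 (adjusted p = 0.121) with NC replicate 2 left out. The C498 value was -0.31 (adjusted p = 0.209) and -0.94 (adjusted p = 0.0278) in those fits. Tlr1 and Tlr6 lie side by side and their longest transcripts share identical stretches, the longest of 229 bases. In all, 4.83% of the 150-base windows of Tlr1 also occur in Tlr6, and reads there could be assigned to either gene. No other pair of the 10 shared a run longer than 18 bases.

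Tlr3 (ENSMUSG00000031639, chr8:45395665-45411080, minus strand), the receptor for double-stranded RNA, had 10.4 and 5.87 TPM in NC, 28.5 and 24.7 in LPS, 4.45 and 4.73 in C498, and 11.9 and 11.2 in C498+LPS. No groups overlapped, and the order was C498, NC, C498+LPS and LPS. LPS raised it 3.27-fold (log2 change 1.64 ± 0.24, adjusted p = 0.00278) and, in C498-treated cells, 2.51-fold (1.17, adjusted p = 0.0198). In LPS-treated cells C498 lowered it to 43.4% (-1.14, adjusted p = 0.0195). C498 alone gave -0.66 (interval -1.23 to -0.10, adjusted p = 0.107), which moved to -1.03 (adjusted p = 0.0184) with NC replicate 2 left out and to -0.30 (adjusted p = 0.196) with NC replicate 1 left out.

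Tlr7 (ENSMUSG00000044583, chrX:167304929-167330558, minus strand), a receptor for single-stranded RNA, had 69.9 and 49.9 TPM in NC, 117 and 111 in LPS, 28.9 and 24.9 in C498, and 61.2 and 47.1 in C498+LPS. The LPS samples were highest, the C498 samples lowest, and C498+LPS overlapped with NC. C498 lowered it to 45.0% of NC (log2 change -1.11, adjusted p = 0.0112) and to 47.5% of LPS in LPS-treated cells (-1.07, adjusted p = 0.0107). LPS gave 1.90 times NC (0.94, adjusted p = 0.0105) and 2.01 times C498 in C498-treated cells (0.97, adjusted p = 0.0169), both just short of 2-fold on the log2(TPM + 1) scale. Centred on the median gene, these became 1.11 and 1.19 and passed it. The fall with C498 alone was -0.87 without NC replicate 1, and had adjusted p of 0.0664 and 0.0929 without C498 replicates 1 and 2, and of 0.0684 when only the NC and C498 samples were fitted.

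Tlr8 (ENSMUSG00000040522, chrX:167242696-167264329, minus strand), the neighbour and relative of Tlr7, had 39.0 and 20.2 TPM in NC, 34.2 and 30.2 in LPS, 14.3 and 15.2 in C498, and 15.4 and 12.6 in C498+LPS. All C498-treated samples were below all the others. It fell in C498+LPS against LPS, to 43.4% (log2 change -1.15 ± 0.28, adjusted p = 0.0309), and C498 alone gave -0.89 (interval -1.54 to -0.24, adjusted p = 0.0729). Leaving out NC replicate 2 gave -1.35 (adjusted p = 0.011) and leaving out NC replicate 1 gave -0.43 (adjusted p = 0.103), while centring on the median gene gave -1.01 (adjusted p = 0.0159) and quantile normalization -1.03 (adjusted p = 0.0207). LPS gave 0.19 (interval -0.47 to 0.84, adjusted p = 0.662), which turned to -0.27 without NC replicate 2, and in C498-treated cells -0.08 (interval -0.73 to 0.58, adjusted p = 0.887), which turned to 0.14 when samples were centred on the median gene.

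Tlr13 (ENSMUSG00000033777, chrX:106143204-106160493, plus strand), the receptor for bacterial ribosomal RNA in mice, had 109 and 70.7 TPM in NC, 46.2 and 41.9 in LPS, 56.0 and 55.3 in C498, and 34.2 and 25.7 in C498+LPS. No groups overlapped, and NC was the highest and C498+LPS the lowest. LPS gave 0.490 times NC (log2 change -0.98, adjusted p = 0.0143) and, in C498-treated cells, 0.538 times C498 (-0.89, adjusted p = 0.0342), neither reaching 2-fold on the log2(TPM + 1) scale. The first was -1.29 (adjusted p = 0.00635) with NC replicate 2 left out and -0.67 (adjusted p = 0.0381) with NC replicate 1 left out. C498 alone gave -0.65 (interval -1.16 to -0.14, adjusted p = 0.0863), with -0.96 when NC replicate 2 was left out and -0.34 when NC replicate 1 was. In LPS-treated cells C498 gave -0.56 (interval -1.07 to -0.05, adjusted p = 0.132), which lay between -0.75 and -0.36 over the alternatives.

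Tlr9 (ENSMUSG00000045322, chr9:106222598-106226883, plus strand), the receptor for unmethylated CpG DNA, was the lowest of the 9 receptors, with 2.7 and 2.3 TPM in NC, 1.99 and 1.92 in LPS, 1.12 and 0.8 in C498, and 1.3 and 1.33 in C498+LPS. No groups overlapped. C498 alone gave 0.384 times NC (log2 change of TPM + 1 -0.84, adjusted p = 0.0444), which is short of 2-fold on a scale that understates changes of low genes, and with 0.1 added in place of 1 the value was -1.31 (adjusted p = 0.048), and with quantile normalization -1.04 (adjusted p = 0.0148). Leaving out any one of the 8 samples brought its adjusted p above 0.05, from 0.0511 to 0.149. LPS gave -0.24 (interval -0.76 to 0.28, adjusted p = 0.456). Other family members were below the level tested, with Tlr5 at 0 to 0.14 TPM, Tlr11 at 0 to 0.05 and Tlr12 at 0 to 0.07 in the 8 samples.

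The falls with C498 in LPS-treated cells were also fitted under each alternative. With only the LPS and C498+LPS samples, 5 of the 6 remained calls, and Tlr4 did not (adjusted p = 0.0551). Their log2 changes kept their direction and lay between -1.75 and -0.82 in every alternative, but leaving out any one sample of LPS, C498 or C498+LPS left 1 or 2 of the 6 as calls, and leaving out an NC sample left 6. The call for Tlr1 held in every alternative, and that for Tlr7 was lost without either LPS sample or C498+LPS replicate 2 (adjusted p 0.072 to 0.0871) and with quantile normalization (log2 change -0.94, short of 2-fold). The call for Tlr4 was also lost with no variance trend (adjusted p = 0.0618). With no filter on low genes, Tlr1 and Tlr7 remained calls, while Tlr3, Tlr4, Tlr6 and Tlr8 had adjusted p of 0.055, 0.112, 0.060 and 0.0854. The calls for Cd14, Tlr1, Tlr2 and Tlr3 with LPS alone held in every alternative. With LPS in C498-treated cells, the calls for Cd14 and Tlr2 held in every alternative and that for Tlr1 was lost without C498 replicate 1 (adjusted p = 0.0688). Those for Tlr3 and Tlr4 were lost without any one sample of LPS, C498 or C498+LPS, with adjusted p of 0.0505 to 0.127 for Tlr3 and 0.0644 to 0.175 for Tlr4, and with no filter on low genes (0.0564 and 0.0881).

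The mixture of receptor mRNAs also moved. The TPM of the 9 receptors summed to 471 and 332 in NC, 793 and 740 in LPS, 321 and 307 in C498, and 630 and 521 in C498+LPS. Tlr2 made up 37.5% and 42.8% of this in NC, 60.1% and 60.8% in LPS, 58.4% and 58.3% in C498, and 74.4% and 75.9% in C498+LPS, so its share was higher in every treated sample than in NC. Without Tlr2, the other 8 summed to 294 and 190.0 in NC, 316 and 290 in LPS, 134 and 128 in C498, and 161 and 125 in C498+LPS, with all 4 C498-treated samples below the 4 others. Tlr13 made up 23.2% and 21.3% in NC but 5.82% and 5.67% in LPS, 17.4% and 18.0% in C498, and 5.42% and 4.93% in C498+LPS. The ratio of Tlr7 to Tlr13 was below 1 without LPS (0.639 and 0.706 in NC, 0.517 and 0.451 in C498) and above 1 with it (2.54 and 2.64 in LPS, 1.79 and 1.83 in C498+LPS).

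**Figure D4:**
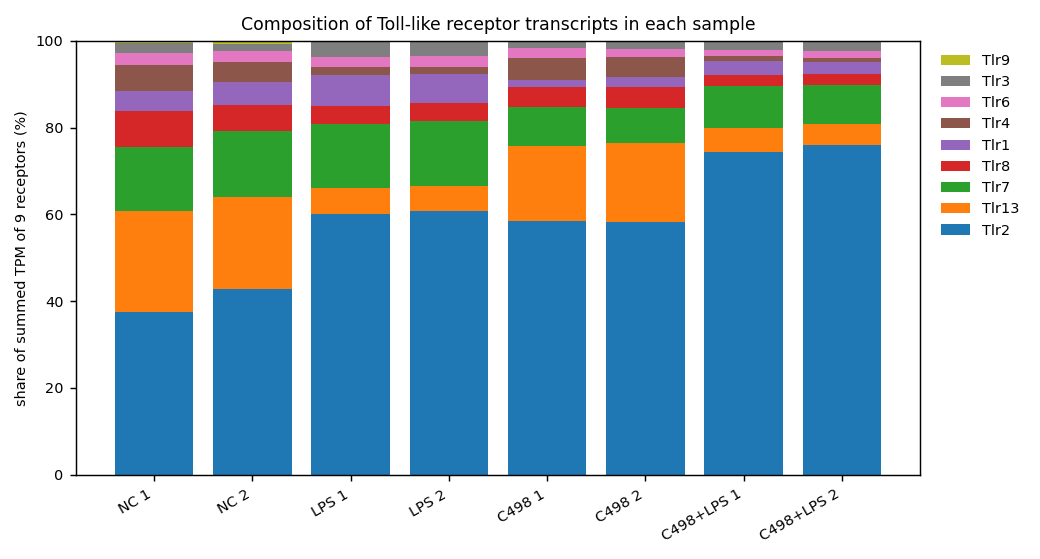
Share of each of the 9 receptors in their summed TPM, in percent, with 1 stacked bar for each of the 8 samples. Tlr2 takes 37.5% and 42.8% in NC and 74.4% and 75.9% in C498+LPS.

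In order of level, NC ran Cd14, Tlr2, Tlr13, Tlr7, Tlr8, Tlr4, Tlr1, Tlr6, Tlr3 and Tlr9, where the samples of Tlr8 and Tlr4, Tlr4 and Tlr1, and Tlr6 and Tlr3 overlapped. LPS ran Cd14, Tlr2, Tlr7, Tlr1, Tlr13, Tlr8, Tlr3, Tlr6, Tlr4 and Tlr9 with no overlap of neighbours, so that Tlr4 moved from sixth to ninth. C498 ran Cd14, Tlr2, Tlr13, Tlr7, Tlr4, Tlr8, Tlr6, Tlr1, Tlr3 and Tlr9, with overlap of Tlr4 and Tlr8 and of Tlr6 and Tlr1. C498+LPS ran Cd14, Tlr2, Tlr7, Tlr13, Tlr1, Tlr8, Tlr3, Tlr6, Tlr4 and Tlr9, with overlap of Tlr1 and Tlr8.

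The genes of proteins that work with these receptors were taken next. Of 20 accessory proteins and chaperones tested, 1 rose (Scimp, an adaptor that brings kinases to TLRs) and 1 fell (Cnpy3, a chaperone of TLR folding) with LPS, none was called with C498 alone, 2 fell with C498 in LPS-treated cells (Cd180 and Scimp) and none was called with LPS in C498-treated cells. Short of 2-fold, 6, 6, 6 and 10 more had an adjusted p of at most 0.05 in these comparisons. At any fold, this made 8, 6, 8 and 10 of the 20. Of all 12189 tested genes, 1200 higher and 2409 lower passed that adjusted p with LPS, and 1132 and 754 with C498. In LPS-treated cells C498 gave 1107 and 938, and in C498-treated cells LPS gave 550 and 1430. Over all tested genes, 5.55% rose and 6.68% fell with LPS, and 2.18% fell with C498 in LPS-treated cells, while 5.64% rose and 1.36% fell with C498 alone and 2.52% rose and 3.13% fell with LPS in C498-treated cells. Thus 1 of 20 in each direction with LPS was near the background. The list's median log2 changes in the 4 comparisons were -0.25, -0.12, -0.07 and -0.39, beside -0.17, 0.01, 0.01 and -0.18 over all tested genes. Cnpy3 had 90.6 and 94.7 TPM in NC, 38.0 and 41.0 in LPS, 57.8 and 57.3 in C498, and 32.7 and 31.0 in C498+LPS (with LPS, log2 change -1.21, adjusted p = 0.000187). Scimp gave 1.03 with LPS (adjusted p = 0.00845) and -1.07 with C498 in LPS-treated cells (adjusted p = 0.0121). The first call of Scimp was lost without NC replicate 1 (log2 change just under 1, adjusted p = 0.0302) or LPS replicate 1 (adjusted p = 0.0743), and the second without either LPS sample or C498+LPS replicate 2 (adjusted p 0.0621 to 0.104). Cd180, a TLR relative that pairs with Ly86, had 129 and 101 TPM in NC, 102 and 91 in LPS, 58.7 and 59.4 in C498, and 42.7 and 40.3 in C498+LPS (against LPS, -1.19, adjusted p = 0.00196). Its C498-treated samples lay below all the others.

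Of the direct partners that were called in no comparison, Ly96, which binds LPS with Tlr4, stayed within 26.0 to 38.6 TPM in all 8 samples. Unc93b1, which carries the nucleic acid receptors to endosomes, had 435 and 413 TPM in NC, 374 and 342 in LPS, 309 and 296 in C498, and 225 and 190 in C498+LPS, with no overlap of groups. Hsp90b1, the endoplasmic reticulum chaperone of TLRs, had 300.4 and 240.3 TPM in NC, 265 and 232 in LPS, 391 and 384 in C498, and 379 and 370.2 in C498+LPS, with the C498-treated samples above the others. Ly86 had 98.9 and 101 TPM in NC, 73.7 and 70.5 in LPS, 74.9 and 73.9 in C498, and 57.7 and 58.0 in C498+LPS. Lbp, which carries LPS in serum, was at 0.71 to 2.54 TPM.

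Of 24 adaptors and kinases tested, 1 rose with LPS (Myd88), none was called with C498 alone, 3 fell with C498 in LPS-treated cells (Pik3ap1, Ikbkg and Ikbke), and none was called with LPS in C498-treated cells, against the shares of all tested genes just given. Short of 2-fold, 5, 6, 7 and 3 more had an adjusted p of at most 0.05. At any fold, this made 6, 6, 10 and 3 of the 24, against the counts at any fold given above for all tested genes. Their median log2 changes were 0.14, 0.04, -0.40 and -0.11, beside -0.17, 0.01, 0.01 and -0.18 over all tested genes. Myd88 had 75.5 and 72.6 TPM in NC, 179.9 and 174 in LPS, 71.5 and 66.6 in C498, and 100.3 and 98.1 in C498+LPS (with LPS, log2 change 1.25, adjusted p = 0.000108). Pik3ap1, which links TLRs to PI3 kinase, gave -1.31 with C498 in LPS-treated cells (adjusted p = 0.009), the IKK subunit Ikbkg -1.14 (adjusted p = 0.0109) and the kinase Ikbke -1.00 (adjusted p = 0.00633). All 3 calls were lost without LPS replicate 1 (adjusted p 0.0794, 0.0908 and 0.0576) and without C498+LPS replicate 2 (0.0835, 0.0914 and 0.0504), that for Ikbke also without LPS replicate 2 (0.0547) and, at -0.86, with quantile normalization.

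Of 19 negative regulators tested, 6 rose and 4 fell with LPS, 3 rose with C498 alone, 1 rose and 2 fell with C498 in LPS-treated cells, and 5 rose and 5 fell with LPS in C498-treated cells. Over all tested genes, 5.55% rose and 6.68% fell with LPS, 5.64% rose with C498, 5.39% rose and 2.18% fell with C498 in LPS-treated cells, and 2.52% rose and 3.13% fell with LPS in C498-treated cells. The regulators' median log2 changes were -0.03, 0.02, -0.18 and -0.26, beside -0.17, 0.01, 0.01 and -0.18. Dusp1, a phosphatase of MAP kinases, had 17.0 and 14.7 TPM in NC, 12.8 and 15.3 in LPS, 496 and 435 in C498, and 131 and 153 in C498+LPS. It rose with C498 alone (log2 change 4.79, adjusted p = 1.08e-05) and in LPS-treated cells (3.25, adjusted p = 8.19e-05), and fell with LPS in C498-treated cells (-1.71, adjusted p = 0.00052). Tnfaip3, the ubiquitin-editing enzyme A20, had 33.0 and 22.5 TPM in NC, 199 and 164 in LPS, 103 and 96.4 in C498, and 241 and 221 in C498+LPS, rising with LPS (2.69, adjusted p = 9.73e-05) and with C498 (1.83, adjusted p = 0.00124). Both genes thus had higher TPM in every C498 sample than in every NC sample, as Cd14 had.

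Further regulators that rose with LPS included Zc3h12a, an RNase (log2 change 2.66, adjusted p = 1.33e-05), and Socs1, a suppressor of cytokine signalling (2.60, adjusted p = 0.000134). Among those that fell was Cd300a, an inhibitory receptor (-2.52, adjusted p = 1.79e-05). Socs1 also rose with C498 alone (1.05, adjusted p = 0.0133), a call lost without NC replicate 1 or C498 replicate 1, with centring and with only the groups compared (adjusted p 0.0332 to 0.0989). In LPS-treated cells C498 lowered Ptpn6, the phosphatase SHP-1 (-1.28, adjusted p = 0.00043), and Irak3, an inhibitor of Myd88 signalling (-1.17, adjusted p = 0.00671). The call for Irak3 was lost without either LPS sample or C498+LPS replicate 2 (adjusted p 0.0528 to 0.0642). In C498-treated cells LPS raised Zc3h12a (2.11, adjusted p = 9.36e-05) and lowered Inpp5d, the lipid phosphatase SHIP-1 (-2.32, adjusted p = 0.000332), and Cd300a (-1.89, adjusted p = 0.000147). Inpp5d fell with LPS alone as well (-2.45, adjusted p = 0.000114). Irak3 had 40.2 and 29.8 TPM in NC, 101 and 93.6 in LPS, 21.6 and 22.4 in C498, and 49.5 and 36.9 in C498+LPS, with C498 samples the lowest, LPS samples the highest, and C498+LPS overlapping with NC. It also rose with LPS alone (log2 change 1.46, adjusted p = 0.00148).

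**Figure D5:**
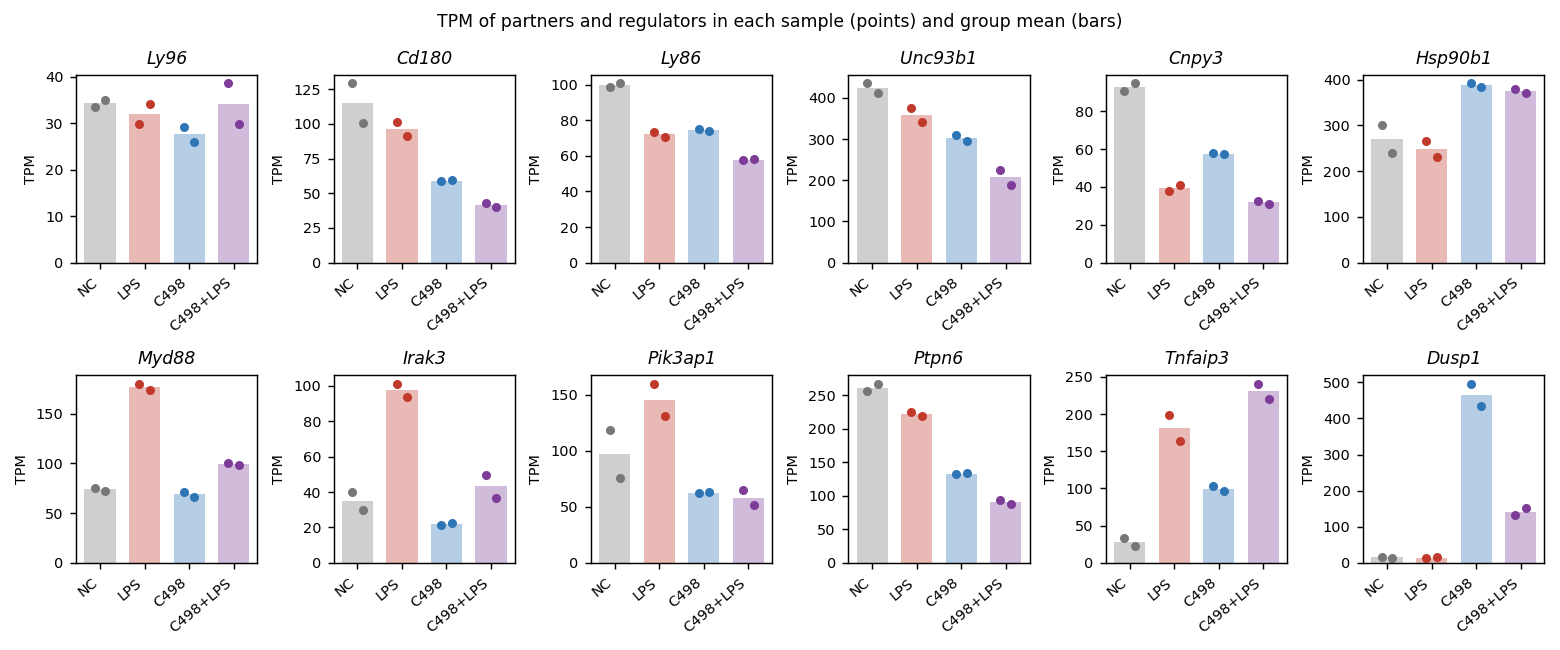
TPM (linear axis from 0, 1 panel a gene) of 12 partners and regulators of the receptors in the 8 samples by group, each point 1 sample and each bar the mean of 2. Dusp1 lies at 12.8 to 17.0 TPM in the samples without C498 and at 131 to 496 TPM in those with it.

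By Pearson's r of log2(TPM + 1) over the 8 samples, the genes closest to each member were found among 8855 genes whose mean was 5 TPM or more. The samples form 4 groups of 2, and r is given as a description only. Closest to Cd14 were Hcar2 (0.999), Cxcl1 (0.998) and Ccl7 (0.998). Closest to Tlr2 were Il1a (0.995), Acod1 (0.994) and Il1b (0.993). Closest to Tlr1 were C5ar1 (0.998), Fpr1 (0.993) and Oas2 (0.993), and closest to Tlr7 were Oas2 (0.992), C5ar1 (0.990) and Fpr2 (0.984), and Oas2 and C5ar1 are in both sets. For Tlr3 they were Oasl2 (0.995), Trim30a (0.994) and Gm9845 (0.990), for Tlr4 Atp8b4 (0.992), Gtf2a1 (0.991) and Itpkb (0.989), and for Tlr6 Actb (0.983), Trim34a (0.975) and Pgam5 (0.973). For Tlr8 they were Maf (0.985), Brip1os (0.984) and Msr1 (0.983), for Tlr13 Fkbp15 (0.994), Septin8 (0.991) and Vps26c (0.990), and for Tlr9, whose TPM was lowest, Dmap1 (0.959), Adsl (0.953) and Sf3b5 (0.951).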

How the data were processed

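RNA-seq of 8 samples was analysed. According to the submitters' notes and the study's methods, the authors used fastp for read filtering, HISAT2 for alignment, StringTie for transcript assembly and RSEM for quantification, and deposited TPM values per gene and sample; tool versions, genome build and annotation are not given in the sources used here. The deposited table also holds a gene length column. TPM keeps no depth, so the depth of each sample is unknown and no counting error can be given. The study's methods name DESeq2 on counts, and that test was not repeated, since no counts were used here.

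Here log2(TPM + 1) was fitted with limma 3.58.1 (R 4.3.3) to 12189 genes averaging 1 TPM or more, using all 8 samples, a mean for each group and a variance trend. P-values were adjusted by Benjamini-Hochberg over all tested genes, and calls needed an adjusted p of at most 0.05 and 2-fold. The script was tested on simulated data. Columns labelled NC were taken as the samples titled as vehicle controls. Gene coordinates are those of GENCODE M21 (GRCm38), matched by identifier, and promoters are from RefSeq (GRCm38.p6).

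The 10 genes and all lists were chosen with earlier results of these data known. Beside the 10 genes, the text names those of each pathway list that were called (at most 4 a list and comparison, by size), the direct partners, and the 3 genes most like each member. The calls of Irak3 and Inpp5d with LPS alone are given besides, and whether they held under the alternatives is not reported here. Alternatives changed the pseudocount, filter, centring, normalization, variance trend, fold threshold and samples.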

Additional observations from a re-analysis of the deposited data

Results flagged for a closer look

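By the interaction of limma's fit across all genes, the log2 response to LPS was called different with and without C498 for 3 of the genes named above. For Cd14 the log2 interaction was -1.00 (adjusted p = 0.0214), from log2 rises of 2.41 with LPS alone and 1.41 with LPS after C498. Its mean TPM was 244 in NC and 1301 in LPS, against 675 in C498 and 1795 in C498+LPS. The Cd14 call was lost without any one sample other than NC replicate 2. It was also lost with no filter on low genes (adjusted p = 0.0634), with centring (0.146) and with no variance trend (0.108). For Dusp1 it was -1.54 (adjusted p = 0.031), with LPS lowering it after C498 and no call with LPS alone. The adjusted p of Dusp1 was above 0.05 in 10 alternatives, 0.0523 to 0.198, which include 7 of the 8 that leave out a sample. For Pdgfrb, of the fibroblast marker list, it was -2.35 (adjusted p = 0.031), with TPM of 0.58 and 0.47 in NC, 9.63 and 8.03 in LPS, 1.18 and 1.24 in C498, and 1.97 and 1.62 in C498+LPS. Its adjusted p was 0.0507 to 0.166 without any one sample other than NC replicate 1, and 0.0935 with no filter on low genes.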

How the results depend on the processing

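Depth is unknown from TPM and 2 samples a group limit every test. Among the 10 genes, calls with LPS numbered 4, and 4 to 6 with 1 sample left out. For C498 alone the 3 calls became 5 with quantile normalization and 1 with only the groups compared, and 1 to 5 with 1 sample left out. For C498 in LPS-treated cells the 6 became 2 with no filter, and 1 to 6 with 1 sample left out. For LPS in C498-treated cells the 5 became 3 with no filter, and 2 to 5 with 1 sample left out. The 1 call of the interaction became 0 with no filter, with centring and with no variance trend, and 0 to 1 with 1 sample left out.

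Nothing in the labels pairs samples by replicate number. The correlations of deviations between same-numbered samples were positive in all 6 pairs of groups (0.0397 to 0.168) but over 0.1 in only 3, so the numbers were not treated as a pairing. With a replicate block the calls numbered 4, 3, 6, 5 and 1 for LPS, C498, C498 in LPS-treated cells, LPS in C498-treated cells and the interaction, as without it, and over all genes 12 were higher and 72 lower in the interaction, against 9 and 48. An unadjusted p under 0.05 was reached by more genes with the block in all 5 (with LPS 5468 against 5017).

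Changes of sign fell on values that were not calls, and their causes were not tested. The interaction of Tlr1 (-0.03) became 0.048 with a pseudocount of 0.1, 0.017 with centring and 0.18 with quantile normalization. Tlr8 with LPS in C498-treated cells (-0.08) became 0.14 with centring and 0.14 with quantile normalization. With 1 sample left out, the ranges that cross 0 were -0.27 to 0.21 for the interaction of Tlr1, -0.20 to 0.28 for that of Tlr7, -0.72 to 0.20 for that of Tlr8 and -0.22 to 0.41 for that of Tlr13, -0.23 to 0.018 for Tlr2 in C498+LPS against LPS, and for Tlr8 -0.27 to 0.64 with LPS and -0.21 to 0.063 with LPS in C498-treated cells. Of the other values of the 10 genes, 687 kept direction and side of the threshold, 65 lost the call and 14 gained one. Of the 23 calls of partners and regulators named by size, 8 were lost under at least 1 alternative, and none changed sign.

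Over all tested genes, calls higher and lower numbered 677 and 814 with LPS (514 to 1200 and 510 to 2409 over the alternatives), 687 and 166 with C498 (274 to 1186 and 71 to 754), 657 and 266 with C498 in LPS-treated cells (300 to 1107 and 141 to 938), 307 and 381 with LPS in C498-treated cells (181 to 550 and 183 to 1430), and 9 and 48 in the interaction (0 to 28 and 9 to 72). Centred on the median gene, they numbered 853 and 530 with LPS, 565 and 269 with C498, 579 and 335 with C498 in LPS-treated cells, and 434 and 196 with LPS in C498-treated cells.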
